A study of Mus musculus with 24 samples.

Results

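Hepatocyte transcripts were followed through 24 RNA-seq libraries of mouse intrahepatic cholangiocytes, the epithelial cells that line the bile ducts inside the liver. The group consists of 10 genes chosen by name, namely Alb, Apoa1, Apoa2, Ttr, Fgb, Serpinc1, Tdo2, Hnf4a, Ahsg and Trf. All 10 were found once among the 49315 genes counted in every library, and their levels served as a measure of hepatocyte RNA in preparations that were meant to hold bile duct cells. No measured value was used to choose them, but the list was drawn up with earlier results of these data known.

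Hepatocytes, the parenchymal cells of the liver, make most plasma proteins, and 8 of the 10 genes encode such secreted proteins. The other two are Tdo2, which encodes the liver enzyme that opens the ring of tryptophan in the kynurenine pathway, and Hnf4a, which encodes a nuclear receptor that drives much of the hepatocyte programme. Hepatocytes and cholangiocytes arise from common precursors in the fetal liver, and mature cholangiocytes are known to make little or none of the secreted proteins.

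The libraries fell into 8 groups of 3: dnTGFB mice given secretin, dnTGFB mice, WT mice given secretin and WT mice, each in males and in females. The dnTGFB mice carry a dominant-negative form of the type II receptor for transforming growth factor beta and model primary biliary cholangitis, an autoimmune disease of the small bile ducts. In the line of this name, the transgene is generally driven by a Cd4 promoter and acts in T cells, but the labels do not name the promoter. Secretin is a gut hormone that makes cholangiocytes secrete bicarbonate. An osmotic minipump released a daily dose of 4 µg per kg from 32 weeks of age for 8 weeks and was renewed after 1 month. WT mice were used at 32 weeks and secretin-treated mice at 40 weeks, and no age was stated for dnTGFB mice without secretin. Comparisons of secretin-treated with untreated WT mice therefore also differ in age. In comparisons with untreated dnTGFB mice, whether the ages differ is not known. No pump with vehicle alone is described.

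The cells of 6 to 8 mice were pooled per group, isolated by binding of an antibody to magnetic beads, and the RNA of the pool was sequenced as 3 libraries, from 500 ng of RNA each. With 1 pool per group, every p-value reflects how libraries from the same pool scatter, which may be technical, and not how mice differ. The groups are those of the titles and of the design text. In 12 libraries, all those of WT secretin and untreated dnTGFB mice, title and genotype label contradict each other.

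Totals ran from 15225605 to 30203330 counts in the male libraries, except for 1429218 in male dnTGFB library 3, and from 6483182 to 104003184 in the female libraries. Several libraries stood apart from others of their group. In males, WT library 1 had 42.75% of its counts on mitochondrially encoded genes, against 9.73% and 9.75% in WT libraries 2 and 3, and dnTGFB library 3 had 11.44% against 55.07% and 55.03% in dnTGFB libraries 1 and 2. In females, 8 heart muscle genes summed to 44046 and 52215 CPM (read counts scaled to the library total) in WT secretin libraries 2 and 3 and to 47007 and 45129 CPM in dnTGFB libraries 1 and 2. The other 8 female libraries held 353 to 2282 CPM of these genes, and male dnTGFB library 3 held 13137 CPM, together with 5438 CPM of 6 neuron markers. The Y-linked gene Ddx3y stood at 46.8 to 64.3 CPM in the 4 female libraries rich in heart muscle transcripts and at 1.36 to 6.02 CPM in the other 8, and Xist stood at 34.0 to 42.4 CPM in the male WT secretin libraries against 0.206 to 5.74 CPM in the other 9 male libraries. These libraries also held transcripts of the labelled sex, with Xist at 12.7 to 74.7 CPM in the 4 female libraries and Ddx3y at 77.6 to 81.8 CPM in the male WT secretin libraries. Transcripts typical of both sexes were thus present in them. Results are given with and without male WT library 1 and dnTGFB library 3, and with and without the 4 female libraries rich in heart muscle transcripts. The male WT secretin libraries with Xist make up their whole group, so results on that group could not be given without them.

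Bile duct markers were present in all libraries. The 12 markers, led by Spp1, Krt19 and Epcam, summed to 6707, 6621 and 6620.1 CPM in male dnTGFB secretin libraries and to 587, 612 and 786 CPM in male dnTGFB libraries. They summed to 2807, 2832 and 2793 CPM in male WT secretin libraries and to 1566, 4002 and 3988 CPM in male WT libraries. In females the sums were 657, 5779 and 4606 CPM in dnTGFB secretin, 1292, 557 and 4907 CPM in dnTGFB, 3769, 99.3 and 229 CPM in WT secretin, and 3330, 632 and 3323 CPM in WT libraries. The lowest bile duct sums thus lay in the female WT secretin libraries that were rich in heart muscle transcripts.

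The 10 hepatocyte genes together took 4563, 4580.3 and 4542 CPM in male dnTGFB secretin libraries and 13896, 13164 and 3904 CPM in male dnTGFB libraries. They took 15633, 15851 and 16432 CPM in male WT secretin libraries and 10203, 3124 and 3046 CPM in male WT libraries. The male WT secretin libraries thus lay far above WT libraries 2 and 3, with WT library 1 between them, and the dnTGFB secretin libraries lay between dnTGFB library 3 and the other two. In females the sums were 21484, 8726 and 5628 CPM in dnTGFB secretin, 1183, 1499.9 and 12669 CPM in dnTGFB, 6208, 369 and 779 CPM in WT secretin, and 17354, 22183 and 16502 CPM in WT libraries. Ordered by the group mean, female WT was highest at 18680 ± 3064 CPM (SD, n = 3), followed by male WT secretin, female dnTGFB secretin, male dnTGFB, male WT, female dnTGFB, male dnTGFB secretin and female WT secretin at 2452 ± 3259 CPM. Of neighbours in this order, female WT and male WT secretin were the only pair whose libraries did not overlap. The order depended on scaling. Per counts outside the mitochondrially encoded genes, an alternative added after seeing the data, male dnTGFB came second at 21538 ± 14859 CPM of these counts, ahead of male WT secretin at 19819 ± 503 CPM (SD, n = 3 each), the other groups kept their order, and all neighbours overlapped. In 18 libraries the hepatocyte sum was above the bile duct sum. It was below it in the 3 male dnTGFB secretin libraries, at 0.68 to 0.69 times, in male WT libraries 2 and 3, at 0.78 and 0.76 times, and in female dnTGFB library 1, at 0.92 times. In RNA of a whole preparation, fewer hepatocytes and less RNA per hepatocyte cannot be told apart.

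**Figure D1:**
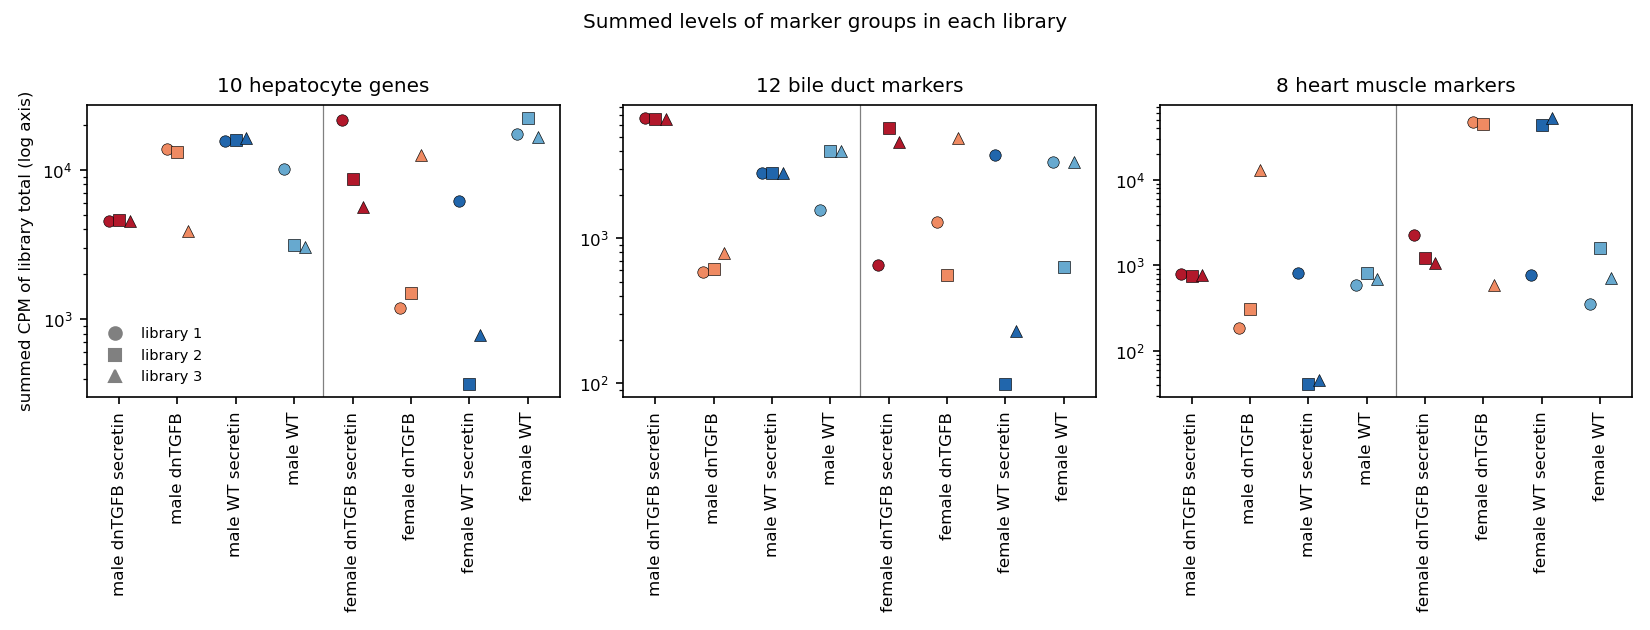
Summed CPM of the library total (log axis) of the 10 hepatocyte genes, 12 bile duct markers and 8 heart muscle markers in each of the 24 libraries, by group, with the symbol marking the library number. Male WT library 1 and male dnTGFB library 3 lie apart from their groups in the hepatocyte panel, and the 4 female libraries at 44046 to 52215 CPM in the heart muscle panel have hepatocyte sums of 369 to 1499.9 CPM.

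Alb, which encodes serum albumin, the main protein of plasma (ENSMUSG00000029368, chromosome 5, 90460897 to 90476602, plus strand, GRCm38), led the group in every library with 48.6% to 68.4% of its counts. It stood at 2260.3, 2249 and 2279 CPM in male dnTGFB secretin libraries and at 7586, 7275 and 1899 CPM in male dnTGFB libraries, and at 10106, 10264 and 10562 CPM in male WT secretin libraries against 5675.5, 1789 and 1764 CPM in male WT libraries. Among the male libraries it was between the 6th and the 38th most abundant of all genes. In females it stood at 14686, 5425 and 3544 CPM in dnTGFB secretin, 668, 766 and 8250.1 CPM in dnTGFB, 4009, 218 and 458 CPM in WT secretin, and 11672, 15174 and 10985 CPM in WT libraries, and its rank ran from 7 in 4 female libraries to 522 in WT secretin library 2. In each female group except WT, the libraries thus differed by at least 4-fold.

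The carriers and transporters of plasma followed. Apoa2 and Apoa1 encode the main apolipoproteins of high-density lipoprotein, Ttr encodes transthyretin, a carrier of thyroid hormone and retinol-binding protein, Trf encodes the iron carrier transferrin, and Ahsg encodes fetuin-A, an inhibitor of calcification. Per kilobase of annotated exon, the median over the 24 libraries was 2014 CPM for Alb, 701 for Apoa2, 461 for Apoa1, 352 for Ahsg, 276 for Ttr and 148 for Trf. Ahsg kept the steadiest ratio to Alb of all, between 7.9% and 13.1% of the Alb counts in the 24 libraries. Apoa1 lay lower against Alb in female WT libraries, at 6.47% to 7.22%, than in any male library, at 15.8% to 25.5%.

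The clotting proteins were Fgb, the beta chain of fibrinogen (ENSMUSG00000033831, chromosome 3, 83040141 to 83049863, minus strand), and Serpinc1, antithrombin, which inhibits thrombin. Fgb had a median of 104 CPM per kilobase and Serpinc1 one of 18.8. These values depend on the annotated exon length, 3810 bases for Fgb and 8546 for Serpinc1. Without division by length the medians were 395 and 161 CPM. Fgb stood at 379, 377 and 374 CPM in male dnTGFB secretin libraries and at 1355, 1332 and 224 CPM in male dnTGFB libraries, and at 1067, 1087 and 1134 CPM in male WT secretin against 957, 110.0 and 105 CPM in male WT libraries. Serpinc1 had the widest range of the 10 genes, from 8.11 CPM in female WT secretin library 2 to 817 CPM in female WT library 2, 101-fold apart. Its gene body overlaps Zbtb37 on the other strand, which reached at most 9.97 CPM, so at the low end reads of both genes may not be separated where counting ignored strand.

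Tdo2 and Hnf4a were the least abundant. Per kilobase their medians were 7.38 CPM for Tdo2 and 8.69 CPM for Hnf4a (ENSMUSG00000017950, chromosome 2, 163506808 to 163572910, plus strand). Tdo2 stood at 14.8, 14.0 and 15.6 CPM in male dnTGFB secretin libraries and at 44.7, 42.1 and 30.8 CPM in male dnTGFB libraries, and at 36.8, 41.7 and 39.6 CPM in male WT secretin against 40.4, 26.5 and 26.4 CPM in male WT libraries. Hnf4a varied little in males next to Alb and Fgb, though not less than Ttr, and stood at 43.8, 43.8 and 42.6 CPM in dnTGFB secretin, 37.4, 30.8 and 21.7 CPM in dnTGFB, 45.8, 45.4 and 53.3 CPM in WT secretin, and 39.5, 41.3 and 35.7 CPM in WT libraries. In females it ran with the others, from 1.53 CPM in WT secretin library 2 to 84.0 CPM in dnTGFB secretin library 1. All 10 genes were counted in all 24 libraries, with a lowest count of 31 for Hnf4a in male dnTGFB library 3.

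**Figure D2:**
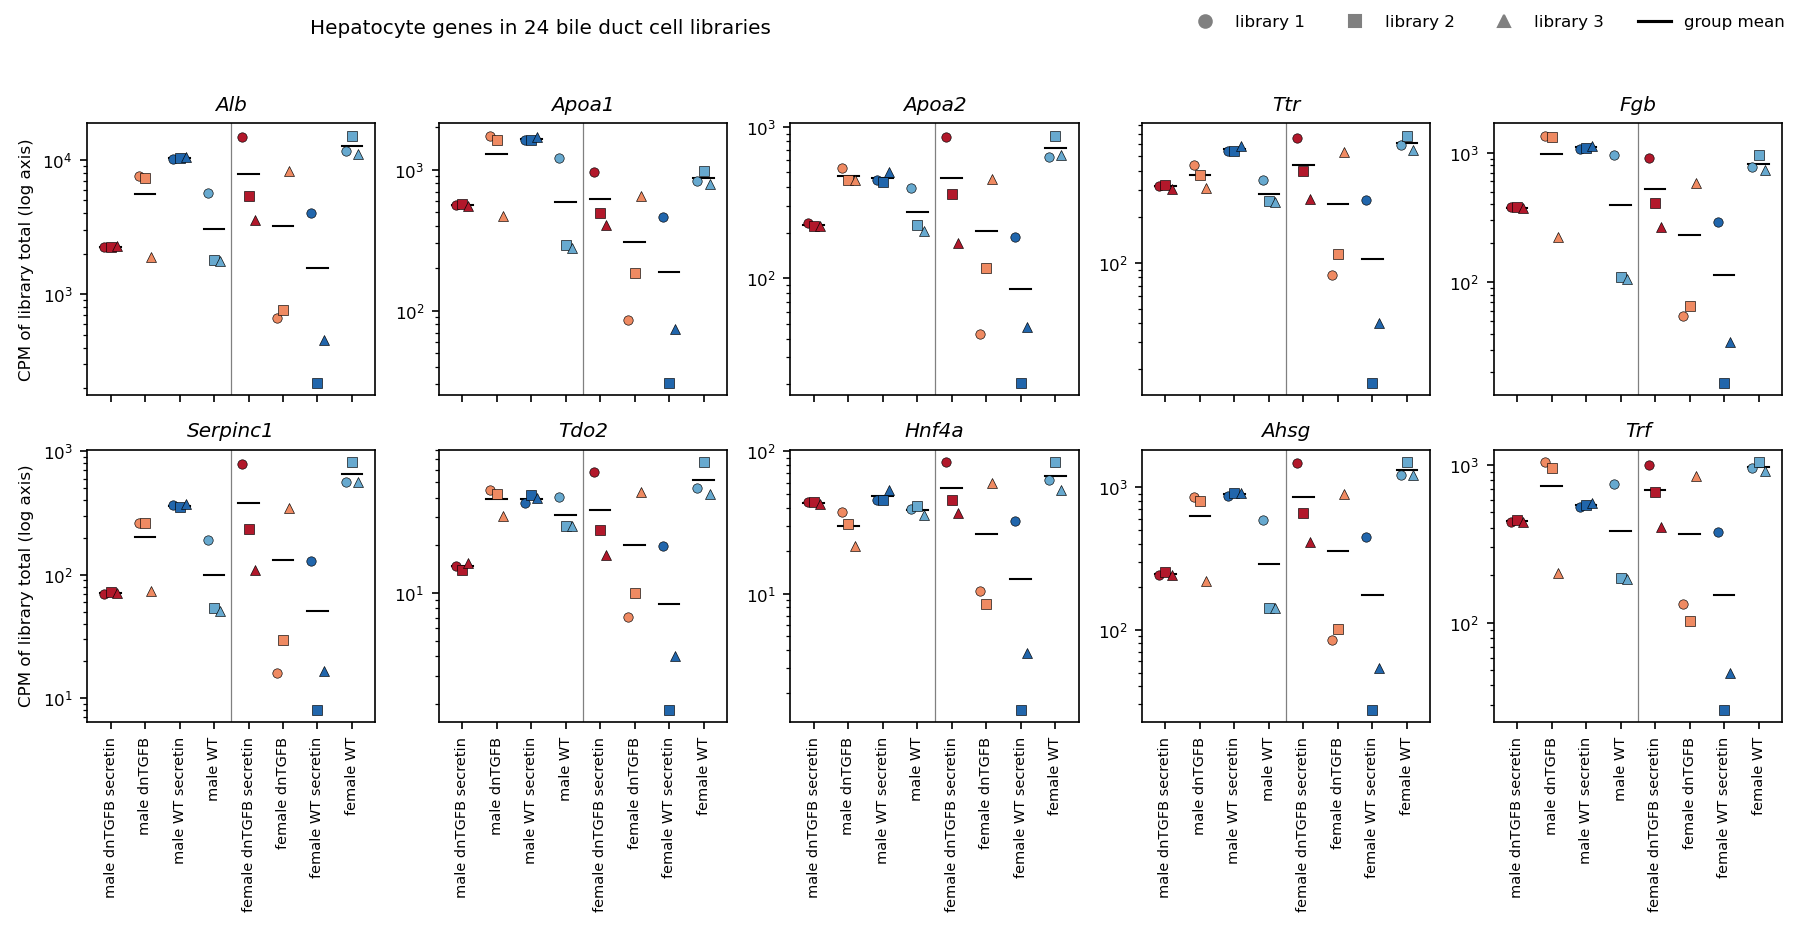
CPM of the library total (log axis) of each of the 10 hepatocyte genes in each library, by group, with the symbol marking the library number and the bar the group mean. The 10 genes share the low points of female WT secretin libraries 2 and 3 and of female dnTGFB libraries 1 and 2, while Hnf4a in males stays between 21.7 and 53.3 CPM.

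The promoters of the 10 genes were searched for shared short motifs, and sequence is shown for Alb and Tdo2, the members with a CCAAT box close to the start site. RefSeq windows of 250 bases before the start (build GRCm38.p6) were found for 8 of the 10 genes, and both strands were searched. The windows were searched for CAAAGTCCA, a site of HNF4, the factor that Hnf4a encodes. TATAAA, known as the TATA box, was sought as a general promoter element. Another such element is the CCAAT box. The 120 bases next to the start site follow, 5′ to 3′ on the strand of the gene. They come from chr5:90460750-90460869 on the plus strand for Alb and chr3:81975729-81975848 on the minus strand for Tdo2. Capitals mark the CCAAT box on either strand, and no match overlaps another.
Alb: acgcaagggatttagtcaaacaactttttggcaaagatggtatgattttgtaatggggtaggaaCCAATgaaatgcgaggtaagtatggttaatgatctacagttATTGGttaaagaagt
Tdo2: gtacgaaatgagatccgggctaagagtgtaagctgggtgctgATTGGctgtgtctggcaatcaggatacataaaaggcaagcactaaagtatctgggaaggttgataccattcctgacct
The CCAAT box lies 56 and 15 bases before the start in Alb and 78 in Tdo2. CAAAGTCCA was in none of the 8, against 0.384% of 32851 windows of all genes, TATAAA was in Apoa2 and Tdo2, against 12.4%, and CCAAT was in Alb, Apoa2, Hnf4a and Tdo2, against 33.9%. Members are counted by gene and the share by window, and Apoa2 and Hnf4a had more windows than the other members. A match describes letters in the window only.

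The make-up of the hepatocyte signal differed between libraries. Each gene was set against the mean of the other 9 on the log2 scale, and the SD of this ratio over the 24 libraries ran from 0.39 for Ahsg to 0.63 for Serpinc1, while the levels themselves spanned 4.85 to 6.57 log2 units. Fgb took 6.19% to 8.53% of the Alb counts in the 12 female libraries and 5.96% to 18.3% in the 12 male libraries. Trf took 19.2% to 19.96% of the Alb counts in male dnTGFB secretin libraries and 10.9% to 13.7% in male dnTGFB libraries, and 5.31% to 5.45% in male WT secretin against 10.7% to 13.3% in male WT libraries. Both pairs of groups were separate in this ratio, as they were in those of Serpinc1 and Hnf4a. In the ratios of Apoa1, Apoa2, Ttr, Fgb, Tdo2 and Ahsg, the libraries of the dnTGFB pair overlapped. The share of all genes whose ratio to Alb separated both pairs is not given here, so the separation is not read as a trait of these members. Serpinc1 took 3.11% to 3.25% of the Alb counts in male dnTGFB secretin libraries and 3.49% to 3.91% in male dnTGFB libraries. Its ratio was 3.435% to 3.62% in male WT secretin against 2.89% to 3.38% in male WT libraries. Hnf4a took 1.87% to 1.95% of the Alb counts in male dnTGFB secretin libraries and 0.423% to 1.14% in male dnTGFB libraries, and 0.442% to 0.505% in male WT secretin against 0.695% to 2.31% in male WT libraries. Male WT libraries 2 and 3 and the dnTGFB secretin libraries, with the highest ratios of Hnf4a to Alb, were also the male libraries in which bile duct markers exceeded the hepatocyte sum.

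**Figure D3:**
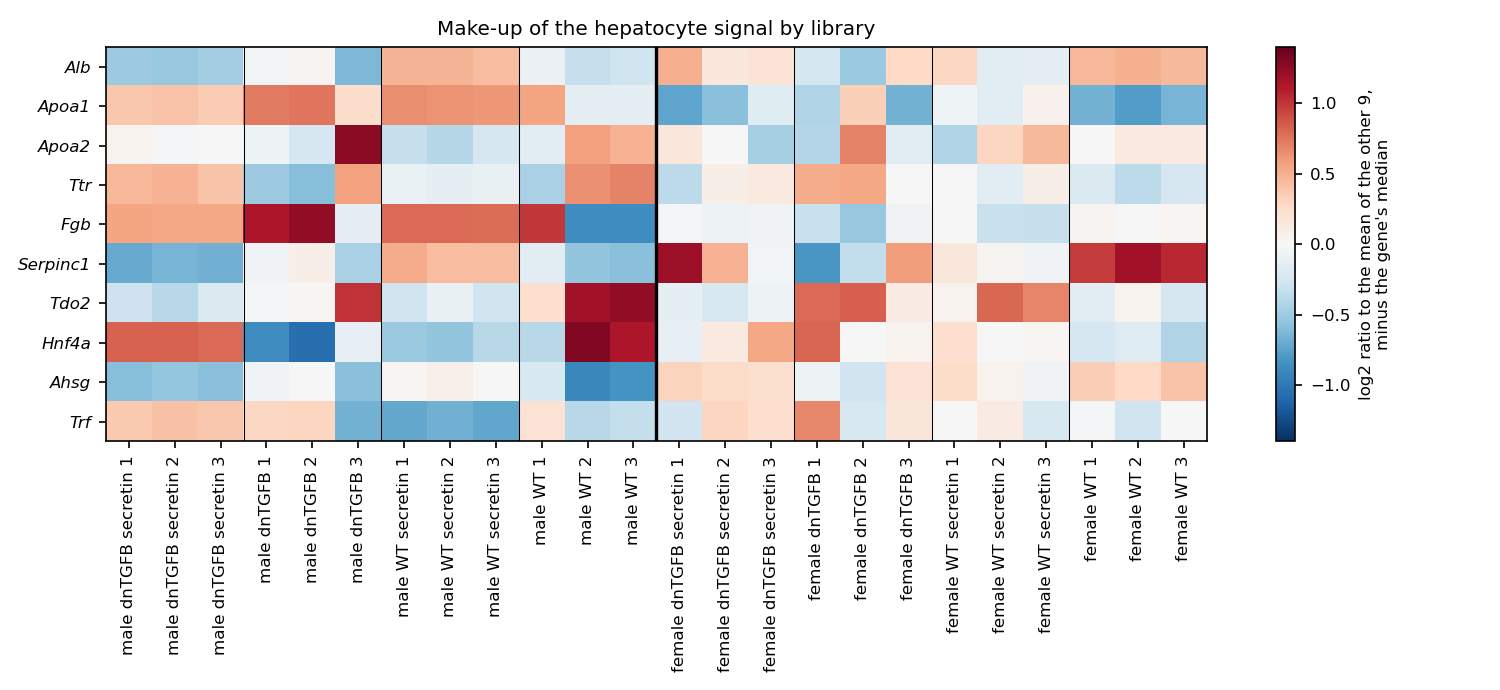
Log2 ratio of each gene to the mean of the other 9, minus the median of that gene over the 24 libraries, with libraries in columns and genes in rows. Among male libraries Hnf4a runs from -1.06 to 1.30 and Fgb from -0.87 to 1.24, while Apoa1 runs from -0.13 to 0.75. Serpinc1 is high in the 3 female WT libraries and in female dnTGFB secretin library 1.

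Whether bile duct preparations of the disease model hold more hepatocyte RNA was asked first in males. None of the 10 genes passed edgeR's quasi-likelihood test in male dnTGFB against male WT libraries, while 17.0% of the 18777 genes tested were called in either direction at an adjusted p under 0.05, the threshold used throughout. An unadjusted p under 0.05 was reached by 1 gene, Apoa2, as by 6314 of all genes, and DESeq2 called 1, among 26.6% of all genes. The fitted log2 fold changes, on TMM-scaled counts, were above 0 for all 10, from 0.20 ± 0.35 (SE) for Hnf4a to 1.67 ± 1.02 for Fgb, with a median of 1.35 against 0.01 over all genes. Alb averaged 5586 ± 3197 CPM in dnTGFB and 3076 ± 2251 CPM in WT libraries (SD, n = 3 each), and its log2 fold change of 1.31 ± 0.76 had an adjusted p of 0.245 by edgeR. Apoa2, at 535, 444 and 447 CPM in dnTGFB against 394, 226 and 206 CPM in WT libraries, was the one gene whose groups did not overlap, which held in this direction for 5.85% of all genes.

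The outcome in males turned on 2 libraries. Without WT library 1 and dnTGFB library 3, all 10 genes were called higher in dnTGFB, with 47.4% of all genes called in either direction and 2 libraries left in each of these groups. Their log2 fold changes then ran from 0.82 for Hnf4a and 1.69 for Ttr to 4.64 for Fgb, with a median of 3.19. Without WT library 1 alone 9 genes were called, among 19.7% of all genes, and without dnTGFB library 3 alone 3 were called, among 34.2%. The sign for Hnf4a depended on scaling, since with library totals in place of TMM its log2 fold change was -0.35, while the median of all genes was -0.44. Under that scaling edgeR called 1011 genes higher and 4212 lower, against 1606 and 1589 with TMM. Beside this, 10 of the 12 bile duct markers fell in dnTGFB, Krt19 by 1.58 and Epcam by 1.78 on the log2 scale, 5 of 6 macrophage and 6 of 6 B cell markers fell, 6 of 6 neuron markers and 0 of 8 heart muscle markers rose, and the mitochondrial share was 55.07%, 55.03% and 11.44% in dnTGFB against 42.75%, 9.73% and 9.75% in WT libraries. The part of these in the result was not tested.

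Male WT library 1 was set between both groups gene by gene. For 9 of the 10 genes it lay between the mean of WT libraries 2 and 3 and the mean of dnTGFB libraries 1 and 2, at a median of 65.8% of the way to dnTGFB. The libraries at both ends were those left after the libraries that stood apart were set aside. The share of all genes lying between is not given here, so this describes the library and not a trait of these genes. Fgb, for example, stood at 957 CPM in this library, against a mean of 1343 CPM in dnTGFB libraries 1 and 2 and 108 CPM in WT libraries 2 and 3. Krt19 lay at 76.9%, Epcam at 72.1% and the mitochondrial share at 72.9% of the way. Hnf4a, at 39.5 CPM in WT library 1 against means of 34.1 CPM in dnTGFB libraries 1 and 2 and 38.5 CPM in WT libraries 2 and 3, was the exception.

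In male WT mice given secretin against male WT mice, none of the 10 genes passed edgeR's test, with 6.22% of all genes called. None had an unadjusted p under 0.05, as 3912 of all genes did, and DESeq2 called none, among 16.6% of all genes. The log2 fold changes ran from 0.01 ± 0.40 for Tdo2 to 1.402 ± 0.75 for Serpinc1, with a median of 0.78 against 0.00 over all genes. In CPM, 8 of the 10 genes were higher in every WT secretin than in every WT library, which held in this direction for 27.6% of all genes, and the other two, Tdo2 and Trf, overlapped. Ttr, for example, stood at 546, 541 and 582 CPM in WT secretin against 347, 253 and 250.2 CPM in WT libraries. Without WT library 1 and dnTGFB library 3, all 10 genes were called higher, with 40.5% of all genes called in either direction, and the log2 fold changes ran from 0.32 for Hnf4a to 3.35 for Fgb. With WT library 1 left out alone, 1 gene was called, among 5.53% of all genes. The bile duct sum was 2793 to 2832 CPM in WT secretin against 1566 to 4002 CPM in WT libraries, and 2 of the 12 markers fell, as did 5 of 6 B cell markers. The part of these and of the mitochondrial share, 19.4% to 19.5% in WT secretin against 9.73% to 42.75% in WT libraries, was not tested. All WT secretin libraries also held Xist, at 34.0 to 42.4 CPM, and its bearing on this comparison was not tested.

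In male dnTGFB mice given secretin, 3 of the 10 genes passed the test. Apoa2, Serpinc1 and Tdo2 fell in dnTGFB secretin against dnTGFB libraries by edgeR's test, which called 12.4% of all genes lower. Apoa2 stood at 232, 223 and 223 CPM in dnTGFB secretin against 535, 444 and 447 CPM in dnTGFB libraries, a log2 fold change of -1.95 ± 0.44 with an adjusted p of 0.0152. Serpinc1 stood at 70.4, 73.1 and 71.2 CPM in dnTGFB secretin against 265, 264 and 74.2 CPM in dnTGFB libraries, a log2 fold change of -2.53 ± 0.78 with an adjusted p of 0.0391. Tdo2 fell by 2.36 ± 0.42 on the log2 scale with an adjusted p of 0.00507. In all 3 genes the groups did not overlap, as held in this direction for 3.31% of all genes, though Serpinc1 in dnTGFB library 3 lay close to the dnTGFB secretin libraries.

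The other 7 genes did not pass in this comparison. Alb had a log2 fold change of -2.35 ± 0.79 with an adjusted p of 0.0529 by edgeR, Fgb one of -2.44 ± 1.05 with 0.114 and Trf one of -1.80 ± 0.83 with 0.135. The median over the 10 genes was -2.29 against -0.05 over all genes. In dnTGFB library 3 Alb, at 1899 CPM, and Fgb, at 224 CPM, lay below the dnTGFB secretin libraries, whereas dnTGFB libraries 1 and 2 lay above them. Without male WT library 1 and dnTGFB library 3, all 10 genes were called lower, with 46.6% of all genes called in either direction, and the log2 fold changes ran from -0.77 for Hnf4a to -3.01 for Serpinc1. With any 1 of the 3 dnTGFB secretin libraries left out, 1 gene was called, and when only the 6 libraries of both groups were fitted, none was. The share of all genes called is given below for the last of these fits and not for the others. A drop in these genes alone can thus not be told from a drop in all calls.

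The sign for Hnf4a again depended on scaling. In CPM it was higher in every dnTGFB secretin library than in every dnTGFB library, as held for 45.5% of all genes, and the log2 fold change was -0.44 ± 0.35 with TMM and 0.51 with library totals, under which the median of all genes was 0.75 and edgeR called 6689 genes higher and 837 lower, against 1900 and 2337 with TMM. Relative to the median of all genes it was therefore lower under both scalings. Beside the hepatocyte genes, 11 of 12 bile duct markers and 6 of 6 macrophage markers rose in dnTGFB secretin, Krt19 by 2.24 ± 0.29 and the Kupffer cell lectin gene Clec4f by 2.21 ± 0.26 on the log2 scale, and 6 of 6 neuron markers fell. The mitochondrial share was 5.31% to 5.66% in dnTGFB secretin against 11.44% to 55.07% in dnTGFB libraries. The part of these in the result was not tested.

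**Figure D4:**
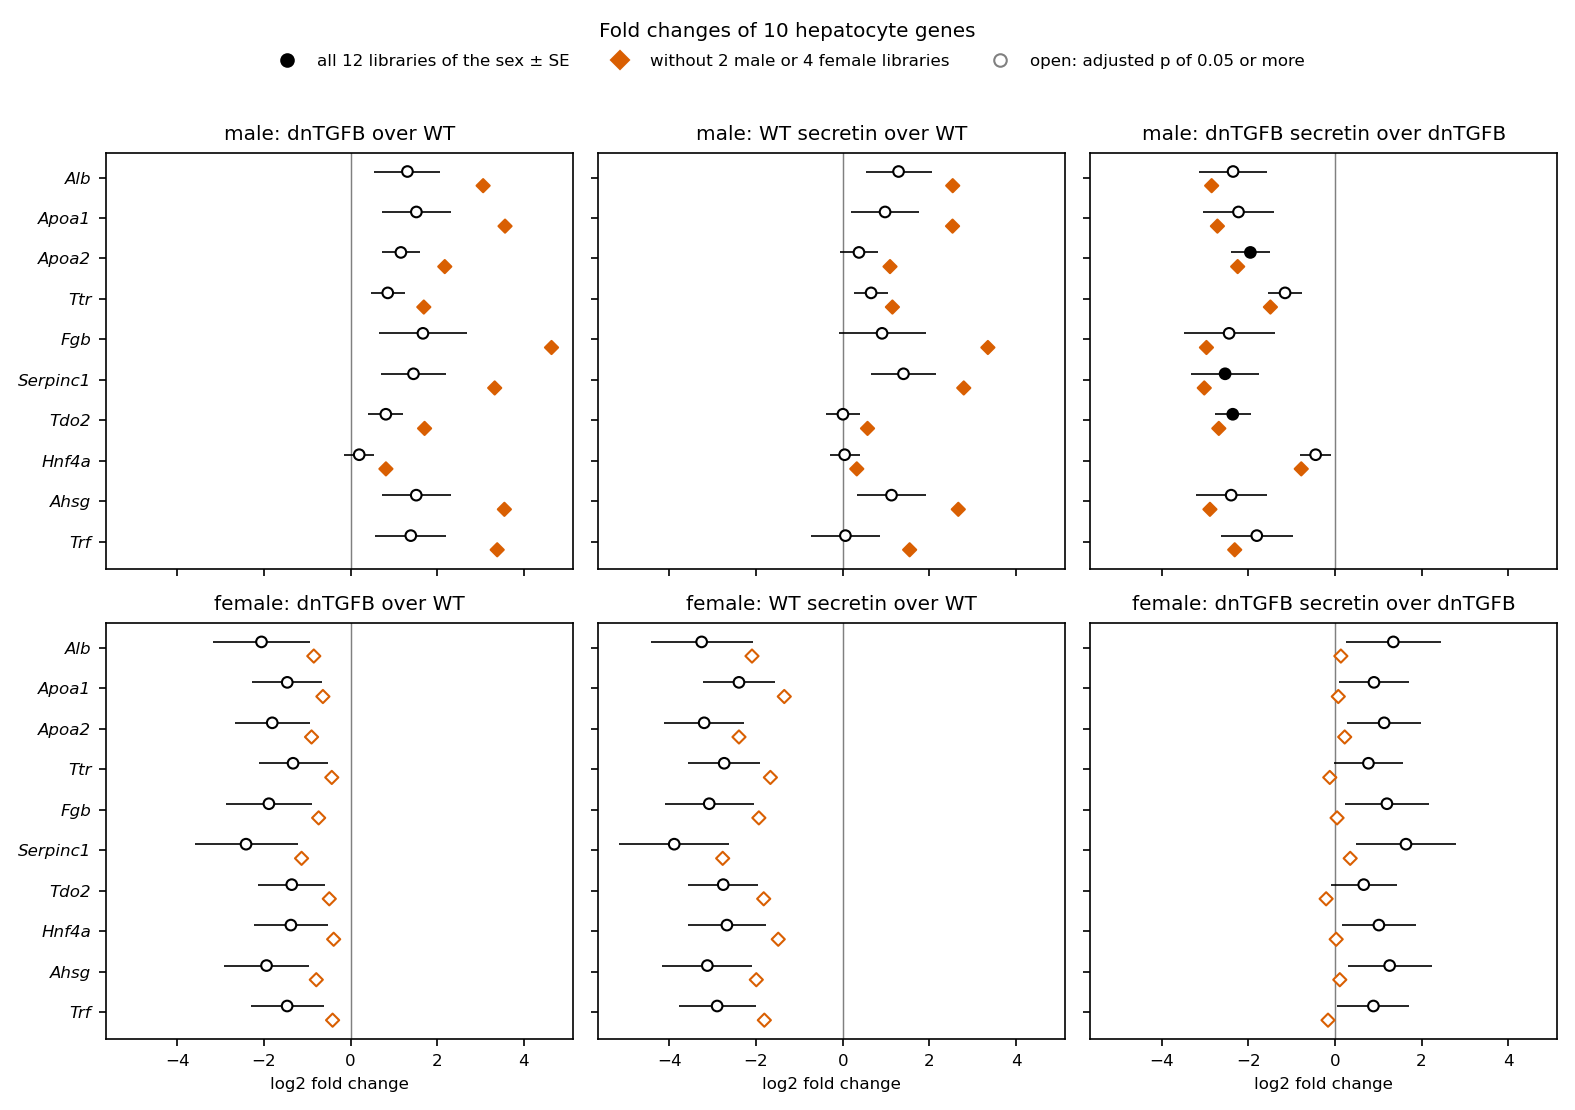
Log2 fold changes of the 10 genes in 6 comparisons, with circles and SE bars for the fit of all 12 libraries of a sex and diamonds for the fit without the libraries that stood apart (male WT 1 and dnTGFB 3, or female WT secretin 2 and 3 and dnTGFB 1 and 2), filled where the adjusted p was under 0.05. Without them all 10 male values are filled in each panel, while no female value is filled.

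The effect of secretin differed between the male genotypes for 4 genes. The secretin effect in dnTGFB minus that in WT was lower than 0 for Alb, Apoa2, Serpinc1 and Tdo2 by edgeR's interaction test, which called 7.51% of all genes lower. The log2 difference was -3.64 ± 1.09 for Alb, with an adjusted p of 0.0461, and -3.93 ± 1.08 for Serpinc1, with an adjusted p of 0.0343. The median over the 10 genes was -2.78 against -0.07 over all genes. This difference also rests on the male WT secretin libraries, all of which held Xist. Without WT library 1 and dnTGFB library 3 all 10 were called lower, with 48.9% of all genes called in either direction. With any 1 of 8 other libraries left out none was called, and the share of all genes called in those fits is not given here. With library totals the medians of all genes were 0.19 for WT secretin against WT and 0.50 for the interaction, for which 653 genes were called higher and 210 lower in the first and 3231 and 553 in the second, against 666 and 502, and 1521 and 1410, with TMM.

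In females no gene of the whole table passed edgeR's test in any of the 3 comparisons of groups, so that 0% of 19882 genes were called in each. In dnTGFB against WT libraries, none of the 10 genes reached an unadjusted p under 0.05, as 3859 of all genes did, and DESeq2 called none of the 10, among 3.93% of all genes. The log2 fold changes ran from -2.41 ± 1.19 for Serpinc1 to -1.33 ± 0.80 for Ttr. In CPM, 8 of the 10 genes were lower in every dnTGFB than in every WT library, against 8.58% of all genes, and the other two, Tdo2 and Hnf4a, overlapped. The dnTGFB libraries were far apart. Ahsg stood at 84.1, 100.5 and 891 CPM in dnTGFB against 1224, 1501 and 1209 CPM in WT libraries, and the 2 low libraries were those with heart muscle transcripts. The mitochondrial share also separated the groups, at 17.37%, 20.13% and 14.36% in dnTGFB against 22.51%, 31.28% and 23.21% in WT libraries, and its part in the result was not tested. With the 4 heart-rich libraries left out, which leaves 1 dnTGFB library assumed to vary like the other groups, none was called and the log2 fold changes ran from -1.13 for Serpinc1 to -0.39 for Hnf4a.

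In female WT mice given secretin, all 10 genes were lower in every WT secretin than in every WT library, against 6.75% of all genes, and all 10 had an unadjusted p under 0.05, as did 5263 genes, but none passed after adjustment in edgeR, where the adjusted p was 0.140 to 0.144. Trf stood at 375, 28.1 and 47.6 CPM in WT secretin against 956, 1042 and 919 CPM in WT libraries, a log2 fold change of -2.90 ± 0.89. Hnf4a stood at 32.4, 1.53 and 3.79 CPM in WT secretin against 63.3, 83.8 and 53.4 CPM in WT libraries, a log2 fold change of -2.67 ± 0.90. DESeq2 called all 10 lower, with adjusted p of 0.0055 to 0.0226, and so did edgeR without WT secretin library 1, which left the pair rich in heart muscle transcripts. The share of all genes called lower in these fits was 4.66% and 8.76%. Without the 4 heart-rich libraries, WT secretin library 1 against the WT libraries gave log2 fold changes of -2.77 for Serpinc1 to -1.35 for Apoa1, and none was called. Heart muscle genes summed to 772 to 52215 CPM in WT secretin against 353 to 1579 CPM in WT libraries. Bile duct markers summed to 99.3 to 3769 CPM in WT secretin against 632 to 3330 CPM in WT libraries. The mitochondrial share was 9.03% to 23.24% in WT secretin against 22.51% to 31.28% in WT libraries. Each of these ranges overlapped between the groups, and their part in the result was not tested.

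In female dnTGFB mice given secretin against female dnTGFB mice, none of the 10 genes had an unadjusted p under 0.05, as 3626 of all genes did, none was called by edgeR, or by DESeq2 among 2.20% of all genes, and the libraries of both groups overlapped for all 10. The log2 fold changes ran from 0.67 ± 0.76 for Tdo2 to 1.64 ± 1.16 for Serpinc1. Apoa1 stood at 965.2, 493 and 407 CPM in dnTGFB secretin against 85.3, 187 and 655 CPM in dnTGFB libraries. The mitochondrial share was 8.06% to 31.01% in dnTGFB secretin against 14.36% to 20.13% in dnTGFB libraries. Without the 4 heart-rich libraries the values lay near 0, from -0.20 for Tdo2 to 0.35 for Serpinc1. The interaction, the secretin effect in dnTGFB minus that in WT, was above 0 for Apoa2, at 4.33 ± 1.25 with an adjusted p of 0.0439, and for Serpinc1, at 5.53 ± 1.71 with 0.0489, by edgeR's test, which called 4.03% of all genes higher. Without the 4 heart-rich libraries neither was called. In this difference 8 of 20 further secreted proteins and 11 of 20 amino acid enzymes were also higher and 8 of 8 heart muscle markers lower, and the part of the heart muscle transcripts in it was not tested.

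Across labels, female WT library 2 and dnTGFB secretin library 1 were alike over the whole table and not in hepatocyte genes alone. Their median absolute log2 ratio was 0.13 over 16327 genes and 0.05 over the 10 hepatocyte genes, which differed by at most 1.16-fold, in Tdo2. Between WT libraries 2 and 1 it was 0.45 over all genes compared, and between dnTGFB secretin libraries 1 and 2 it was 0.68. Female WT secretin library 1 and dnTGFB secretin library 3 had a median of 0.12 over all genes compared and were within 1.20-fold for all 10 genes. Within groups, dnTGFB secretin libraries 1 and 2 differed by up to 3.35-fold, in Serpinc1, and WT libraries 1 and 3 by at most 1.19-fold.

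The sexes were compared by the difference of their effects in a fit of all 24 libraries, which was added after the data were seen. For dnTGFB against WT, the female effect minus the male effect was below 0 for all 10 genes, with a median log2 difference of -2.95 against 0.25 over all genes. By edgeR none was called, with 6.86% of all genes called, and 9 had an unadjusted p under 0.05, as did 5291 of 20222 genes. DESeq2 called 4, among 12.5% of all genes. For WT secretin against WT the median was -3.51, with none called by edgeR among 0% of all genes. An unadjusted p under 0.05 was reached by 10, as by 4537 of all genes, and DESeq2 called 9, among 9.39%. For dnTGFB secretin against dnTGFB the median was 3.07, with none called by edgeR among 7.75% of all genes. An unadjusted p under 0.05 was reached by 8, as by 5387 of all genes, and DESeq2 called 7, among 15.1%. Tdo2 came closest, at 2.97 ± 0.92 with an adjusted p of 0.0524. Without the 6 libraries that stood apart in both sexes, edgeR called 5, 7 and 1 of the 10 genes in these 3 differences, in the same directions, against 3.42%, 0.811% and 1.70% of all genes called in that direction.

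Other hepatocyte genes were read beside the 10. Of 20 further secreted proteins of hepatocytes, 9 fell and none rose in male dnTGFB secretin against dnTGFB libraries, with a median log2 fold change of -2.40, while edgeR called 12.4% of all genes lower. Among those that fell, and named here after their values were seen, were the lipoprotein gene Apob at -2.50 ± 0.78 and the prothrombin gene F2 at -2.42 ± 0.79. Of the most abundant members, Ambp had -0.59 ± 0.61, Hpx -2.84 ± 1.23 and Fga -2.21 ± 1.01, which did not pass. Of 20 enzymes of amino acid catabolism and the urea cycle, 14 fell and none rose, with a median of -2.06. Bhmt, which remethylates homocysteine, fell by 3.11 ± 0.51, whereas Mat1a, at -2.11 ± 0.80, did not pass. Of the kynurenine pathway genes on the list, which act after Tdo2 and were singled out after their values were seen, Kmo, Kynu, Haao and Qprt fell by 2.35, 2.14, 2.25 and 1.81 on the log2 scale, while Afmid, at -0.60 ± 0.30, and Acmsd, at -2.07 ± 0.73, did not pass.

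Transcription factors of hepatocytes did not move as one. Among 15 such genes, Creb3l3 fell by 2.13 ± 0.49 on the log2 scale in male dnTGFB secretin against dnTGFB libraries, while Foxa1 and Prox1 rose by 1.33 ± 0.31 and 1.12 ± 0.14, all called by edgeR. Rxra, at 0.41 ± 0.28, and Cebpa, at -0.01 ± 0.33, did not pass. In male dnTGFB against WT libraries, Foxa1 fell by 1.23 ± 0.31. In male WT secretin against WT libraries, Onecut1 rose by 2.36 ± 0.55 and Prox1 by 1.10 ± 0.14. Several of these factors, Prox1, Foxa1 and Onecut1 among them, are also known from bile duct cells or their precursors. The summed level of the 15 genes ranged over 3.34-fold between libraries, against 60.2-fold for the 10 hepatocyte genes.

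The 10 genes are expressed in other tissues too, Ttr in choroid plexus and pancreatic islets, Apoa1 in enterocytes, Trf in oligodendrocytes, and several in yolk sac. The choroid plexus marker Folr1 reached at most 15.7 CPM and Kl 8.79 CPM, while Aqp1, which bile duct cells also express, ran from 311 to 2742 CPM. The islet list summed to at most 334 CPM and the oligodendrocyte list to at most 420 CPM, both in male dnTGFB library 3, where Ttr stood at 309 CPM and Trf at 207 CPM, and to at most 36.2 and 143 CPM in the other 23 libraries. The enterocyte list reached 57.2 CPM, the kidney proximal tubule list 207 CPM and the yolk sac and fetal liver list 130 CPM. The part of these tissues in the levels was not tested.

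Genes with the pattern most like that of the 10 were sought among 10186 other protein-coding genes with a mean of at least 10 CPM, as those with the smallest SD over the 24 libraries of the log2 ratio to the mean of the 10. The 8 closest were Azgp1, Hgfac, Lcat, Mettl7b, Igfbp2, Apon, Rbp4 and Rdh7, with SDs of 0.17 to 0.25, against a median of 1.52 over the genes compared, 1.61 for Krt19 and 1.73 for Epcam. Azgp1 encodes zinc-alpha-2-glycoprotein, Lcat the plasma enzyme that esterifies cholesterol, and Rbp4 the retinol carrier that binds transthyretin. Rbp4 ranged from 8.12 to 394 CPM and Azgp1 from 3.82 to 223 CPM over the libraries. The likeness describes shared variation between libraries, and the part of hepatocyte content and depth in it was not tested.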

How the data were processed

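The deposited tables hold raw read counts per gene, 1 table per library, which the authors made from poly(A) RNA-seq per the labels' protocols. For aligner, counter, strand setting and build, nothing was stated. Of 49315 identifiers, 49056 are in GENCODE M21 and 44858 have the same coordinates there, so positions are GRCm38. Levels are CPM of the library total. edgeR 4.0.16 (R 4.3.3) fitted the 12 libraries of a sex by quasi-likelihood after its default low-count filter and TMM scaling, with Benjamini-Hochberg adjustment over all genes and calls at 0.05. DESeq2 1.42.0, other scalings, no filter, a replicate block and libraries left out were alternatives. The edgeR fit with TMM scaling was tested on counts simulated from the male libraries, for male dnTGFB against male WT only. No simulated library was made to stand apart in composition, and the other fits were not tested in this way. Likeness used log2(CPM + 0.5).

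The genes and lists were chosen with earlier results of these data known. Beside the 10 genes, the 3 most abundant members of each list, Krt19 and Epcam were named by rule. Others were named after their values were seen. Values of some list members are not reported here. Replicate numbers were not taken to pair libraries in the main fit. Of same-numbered pairs, 3 of 18 male and 5 of 18 female ones correlated above 0.1. Correlations ran from -0.19 to 0.26 in males and from -0.87 to 0.89 in females. With libraries standing apart within groups of 3, this count cannot exclude pairing.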

Additional observations from a re-analysis of the deposited data

Results flagged for a closer look

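In males, the effect of secretin in dnTGFB minus its effect in WT differed from 0 by edgeR's interaction test for 4 of the 10 hepatocyte genes, which is what set them apart here. The log2 difference was -3.64 ± 1.09 (SE) for Alb with an adjusted p of 0.0461, -2.32 ± 0.61 for Apoa2 with 0.0301, -3.93 ± 1.08 for Serpinc1 with 0.0343 and -2.36 ± 0.57 for Tdo2 with 0.0217.

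In females the same difference was called in the opposite direction for Apoa2, at 4.33 ± 1.25 with an adjusted p of 0.0439, and for Serpinc1, at 5.53 ± 1.71 with an adjusted p of 0.0489. The difference between the sexes in this interaction was not tested. Each group is 1 pool of mice, and the male values rest on groups in which WT library 1 and dnTGFB library 3 lay apart, the female values on groups in which 4 libraries held heart muscle transcripts. The male values also rest on the WT secretin libraries, all of which held Xist, at 34.0 to 42.4 CPM.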

How the results depend on the processing

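Counts are of the 10 hepatocyte genes called by edgeR. Without male WT library 1 and dnTGFB library 3, all 10 were called in each male comparison, against 0 for dnTGFB and 0 for WT secretin (both against WT), 3 for dnTGFB secretin against dnTGFB and 4 for the interaction. The shares of all genes called in either direction are given in brackets. With library totals the counts were 1 (27.8%), 1 (4.6%) and, for the interaction, 7 (20.2%). With DESeq2 they were 1 (26.6%) for dnTGFB and 5 (33.1%) for dnTGFB secretin. Fitting only the groups compared gave 0 (2.9%) for dnTGFB secretin, and no low-count filter gave 2 (5.43%) for the interaction. Leaving out 1 library at a time gave 0 to 9, 0 to 1, 1 to 8 and 0 to 9 in these 4 comparisons. The last 2 of these had 8 (22.6%) and 9 (17.2%) without WT library 1, and 8 (37.4%) and 8 (37.8%) without dnTGFB library 3.

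In females, leaving out 1 library gave 0 to 0 for dnTGFB against WT, 0 to 10 for WT secretin against WT, 0 to 0 for dnTGFB secretin against dnTGFB and 0 to 10 for the interaction, which had 2. The interaction had 10 without WT secretin library 1 (38.5%) or without dnTGFB library 3 (31.0%). DESeq2 called 10 for WT secretin (13.3%) and 10 for the interaction (31.6%). The interaction had 1 with DESeq2 size factors (14.4%) and 0 with library totals, with totals outside mitochondrial genes, with no filter, without the heart-rich libraries, without WT library 2 and dnTGFB secretin library 1, and with the replicate block. The block gave 2 for male dnTGFB secretin and 3 for the male interaction, and changed no other count by over 1.5 times. For the block and for the interaction counts of 0, the share of all genes called is not given here.

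For the female effect minus the male effect, counts of 0 became 4, 9 and 7 with DESeq2 for dnTGFB, WT secretin and dnTGFB secretin, and 5, 7 and 1 without the 6 libraries that stood apart. DESeq2 size factors gave 1 (7.35%) for dnTGFB secretin. Leaving out 1 library gave 0 to 8, 0 to 10 and 0 to 7. Without female dnTGFB library 3 they were 8 (15.8%), 6 (7.47%) and 7 (14.4%), and without female WT secretin library 1 the second was 10 (21.2%). The first was 6 (7.42%) without male WT library 1 and 1 (9.39%) without female dnTGFB secretin library 1.

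Some log2 fold changes that were not called changed sign. With library totals Hnf4a was at -0.35 in male dnTGFB against WT, 0.51 in dnTGFB secretin against dnTGFB and 0.20 in the interaction. In male WT secretin against WT, Tdo2 was at -0.0089 with no filter, and with 1 library left out Tdo2 ran between -0.21 and 0.57, Hnf4a between -0.11 and 0.33 and Trf between -0.34 and 1.54. Hnf4a in male dnTGFB against WT then ran between -0.13 and 0.53. In female dnTGFB secretin against dnTGFB, Ttr, Tdo2 and Trf were at -0.12, -0.20 and -0.16 without the heart-rich libraries, and Tdo2 was at -0.26 without WT library 2 and dnTGFB secretin library 1 and ran between -0.31 and 1.47 with 1 library left out. The cause was not tested. Depth limits male dnTGFB library 3 most, with 1429218 counts, and 1 pool per group limits every p-value.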
